A study of Mus musculus with 21 samples.

Results

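The cadherin and protocadherin genes are the 56 genes on the array whose symbol begins with Cdh and a digit or with Pcdh, out of 18193 genes with a probe set of their own. All 56 were kept, since no filter on low values was applied, and each was read from the one of its probe sets that varied most over the arrays. They comprise 5 type I classical cadherins, 11 type II classical cadherins, 5 atypical cadherins, 4 delta-1 and 5 delta-2 protocadherins, 23 clustered protocadherins and 3 other protocadherins. Another 6 probe sets, all named for several protocadherin-alpha genes at once, were left out, so the alpha cluster is not described. RNA of post-mitotic neurons, made from mouse embryonic stem cells (mESC) and purified, was hybridised to 21 Affymetrix arrays, 3 in each of 7 groups that the labels number as biological replicates. In the engineered lines an enhancer of the nestin gene, written NesE in the line names, drives a transcription factor of one neuron class. NesE-Lmx1a cells, for mesencephalic dopamine neurons, were differentiated with SHH and FGF8 for 10 or 14 days. NesE-Nkx2.2 cells, for serotonergic neurons, were differentiated for 10 days with SHH and either FGF8 or RA (retinoic acid), and NesE-Olig2 cells, for somatic motoneurons, for 8 days with SHH and RA. Wild-type cells were differentiated for 10 days with FGF8 or for 8 days with RA. Their labels disagree on SHH, which the titles name and the source names omit, and assign them to dorsal midbrain with FGF8 and dorsal hindbrain with RA. Line and SHH therefore cannot be told apart against wild-type cells if those received none. No source used here says whether a line is 1 clone.

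Classical cadherins are calcium-dependent adhesion proteins whose outer domains bind the same or a related cadherin on the next cell and whose tails hold catenins, which join them to actin. In the developing brain and spinal cord different nuclei, layers and motor pools carry different combinations of type II cadherins, a pattern often called a cadherin code, and N-cadherin is shared by nearly all neural cells. Delta protocadherins are also expressed in restricted nuclei and act on actin and on axon growth, while the clustered protocadherins are chosen promoter by promoter in single neurons and give each cell a surface identity used in self-avoidance.

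Every value below is a log2 signal that reads as a deviation from the median of its own probe set (a centring inferred from the values, which no source states), so a gene can be compared between arrays and its absolute level is not known. A gene low in every group and a gene equally high in every group both read close to 0. In these bulk samples fewer cells of a type and less RNA per cell cannot be told apart.

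Against wild-type cells the line genes followed the labels. Lmx1a read 8.19, 8.06 and 8.33 in its line at day 10 and 2.90, 3.05 and 1.90 in the FGF8 wild type. In the RA wild type Lmx1a reached 4.395, in replicate 2. Nkx2-2 lay above both wild-type groups in every array of its line. Its lowest array there, FGF8 replicate 3 at 0.13, lay below replicate 2 of the Olig2 line at 0.195. Olig2 read 4.27, 5.24 and 3.80 in its line. Olig2 also read 4.89 in the third replicate of Lmx1a cells at day 10. Mean levels over the dopaminergic, serotonergic and somatic motor neuron marker lists were highest in the Lmx1a, Nkx2.2 and Olig2 lines, with 1.83 to 4.14 over 5 genes, 3.82 to 5.71 over 4 genes and 5.13 to 5.53 over 5 genes. The bioC hybridization controls split the arrays into apparent batches, which the labels do not name. Batch A held 9 arrays, namely the 3 day 10 arrays of Lmx1a cells and replicates 1 and 2 of 3 groups (Lmx1a line at day 14, Olig2 line, FGF8 wild type), and batch B held the 12 others. The mean of 12 labelling control probe sets read -4.08, -3.79 and -3.93 in the Lmx1a line at day 10, lower than in the 18 other arrays, where it lay between -1.80 and 2.03. Labelling and group cannot be told apart in comparisons with that group. In earlier results of these data 3 arrays had stood apart from their replicates (Lmx1a line at day 10, replicate 1; FGF8 wild type, replicate 2; Nkx2.2 line with FGF8, replicate 1), and the comparisons were also fitted without these 3.

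A moderated F test over the 7 groups called 20 of the 56 genes at an adjusted p under 0.05, which is 35.7% of them and below the share of all genes, 41.3%. By subfamily it called 6 of 11 type II cadherins, 3 of 5 delta-2 and 2 of 4 delta-1 protocadherins, 2 of 5 type I and 1 of 5 atypical cadherins, 1 of the 3 other protocadherins and 5 of 23 clustered protocadherins. The range over the 21 arrays reached 2 log2 units in 25 members (44.6%) and in 35.7% of all genes, and it stayed under 1 in 15 members. The largest ranges belonged to Pcdh11x (5.90), Pcdh19 (5.66), Pcdh17 (5.46), Cdh13 (5.23) and Cdh8 (5.19). A range does not separate groups from single arrays, since Pcdh19 owes its own to 1 array.

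**Figure D1:**
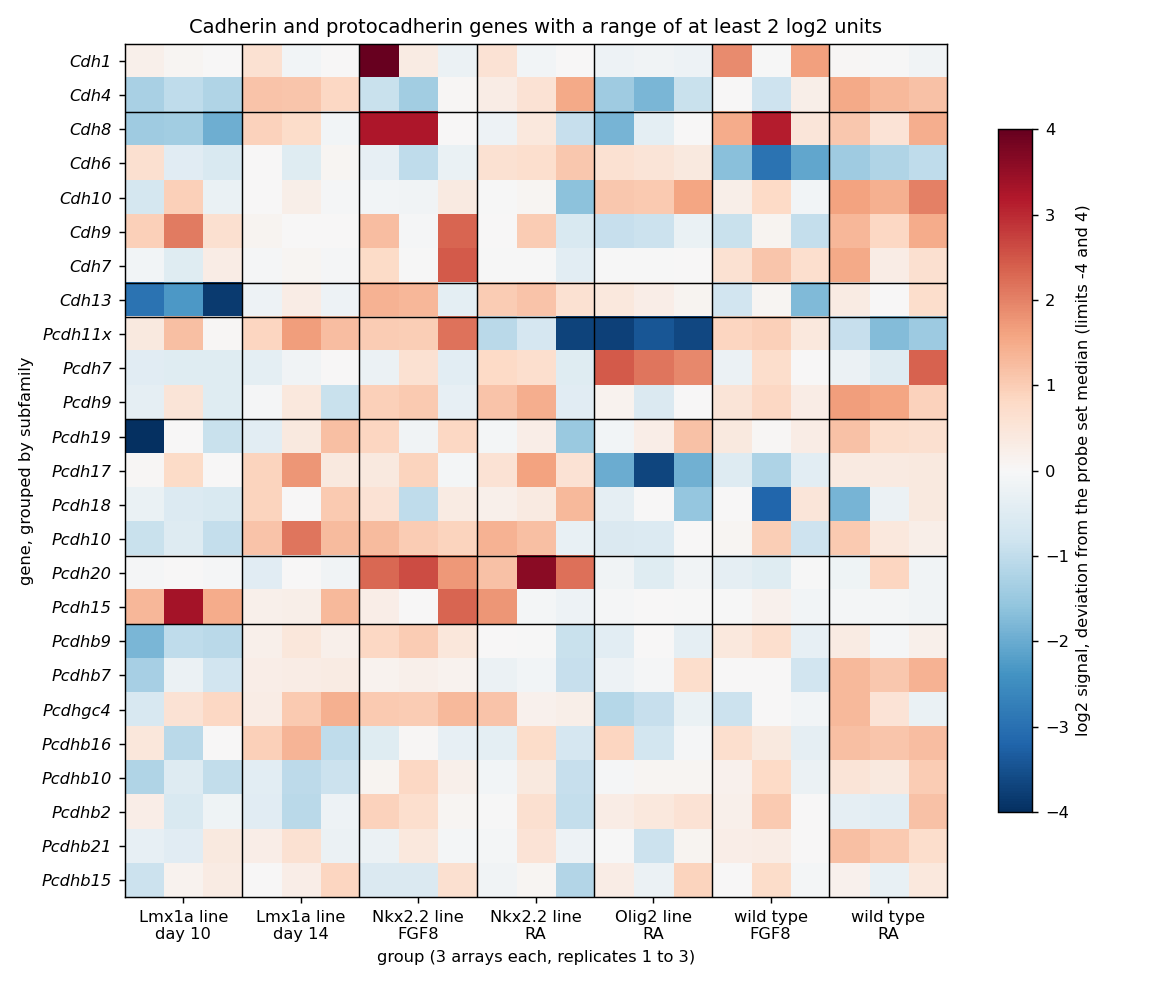
Heat map of the 25 genes with a range of at least 2 log2 units (rows, grouped by subfamily) over the 21 arrays (columns, 3 per group); colour gives the log2 signal as a deviation from the probe set median, from -4 (blue) to 4 (red), and Cdh1 and Pcdh19 reach beyond these limits in 1 array each. Blocks of 3 like-coloured arrays appear for Cdh13 in the Lmx1a line at day 10, Pcdh17 and Pcdh11x in the Olig2 line and Pcdh20 in the Nkx2.2 line, while Cdh1 is high in 1 array of the Nkx2.2 line under FGF8.

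The promoters of 3 members that separate the lines are shown because Cdh6 differed between each line and wild-type cells, Pcdh20 stood high in the Nkx2.2 line and Pcdh17 low in the Olig2 line. RefSeq (GRCm38.p6) gave promoters for 20 of the 56 members, and the 250 bases before the annotated start are printed 5′ to 3′ on the strand of the gene. Capitals mark matches on either strand to TNAAGTG, the core recognised by NK2-class homeodomain proteins such as Nkx2.2, to TAATTA, a homeodomain core, or to the E-boxes CATATG and CAGCTG.
Cdh6, chr15:13173676-13173925, minus strand: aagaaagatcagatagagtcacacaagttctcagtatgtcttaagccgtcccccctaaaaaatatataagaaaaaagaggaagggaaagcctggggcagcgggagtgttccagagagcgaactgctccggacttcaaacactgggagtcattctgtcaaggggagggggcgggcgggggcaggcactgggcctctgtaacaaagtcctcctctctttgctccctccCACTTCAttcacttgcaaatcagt
Pcdh20, chr14:88471397-88471646, minus strand: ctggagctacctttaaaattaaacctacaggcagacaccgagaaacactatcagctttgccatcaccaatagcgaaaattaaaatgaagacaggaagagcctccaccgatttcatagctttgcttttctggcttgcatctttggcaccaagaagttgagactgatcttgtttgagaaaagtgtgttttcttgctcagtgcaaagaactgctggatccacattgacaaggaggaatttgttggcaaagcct
Pcdh17, chr14:84443313-84443562, plus strand: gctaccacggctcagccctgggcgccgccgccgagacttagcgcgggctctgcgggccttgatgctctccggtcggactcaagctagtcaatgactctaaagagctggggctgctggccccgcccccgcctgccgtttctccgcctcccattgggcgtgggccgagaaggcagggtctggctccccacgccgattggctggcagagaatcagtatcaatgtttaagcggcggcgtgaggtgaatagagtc
Cdh6 held 1 match, CACTTCA, the reverse complement form of TNAAGTG, beginning 24 bases before the start, and the 2 others held none of the 4 motifs. TNAAGTG matched 10.1% of 32851 promoters of this length, TAATTA 4.84%, CATATG 3.46% and CAGCTG 13.0%. Among the 20 members TNAAGTG matched 3 (Cdh6, Cdh9 and Pcdh10), TAATTA 1 (Cdh7), CATATG 2 (Cdh10 and Cdh15) and CAGCTG 1 (Cdh9).

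Among the type I cadherins, Cdh4 (R-cadherin) separated the groups most clearly. Cdh4 read -1.31, -1.02 and -1.21 in the Lmx1a line at day 10, 1.14, 1.11 and 0.84 at day 14, -0.88, -1.38 and 0.05 in the Nkx2.2 line and 0.00, -0.83 and 0.24 in the wild type. Under RA, Cdh4 read 0.30, 0.57 and 1.51 in the Nkx2.2 line, -1.41, -1.83 and -0.88 in the Olig2 line and 1.50, 1.29 and 1.18 in the wild type. It was therefore high in every day 14 array of the Lmx1a line and in the RA wild type, and low in the Olig2 line and the Lmx1a line at day 10 throughout, with no overlap between the former and the latter. Cdh4 has 3 probe sets, of which the second followed the one used and the third gave differences between -0.10 and 0.05 in the comparisons that called the gene. Cdh2 (N-cadherin), the classical cadherin shared by neural cells, moved less. Cdh2 read 0.27, 0.76 and 0.03 in the Lmx1a line at day 10, 0.47, 0.03 and 0.77 at day 14, -0.82, -0.90 and -0.27 in the Nkx2.2 line and 0.32, 0.00 and 0.33 in the wild type. Under RA, Cdh2 read -1.08, -0.99 and 0.37 in the Nkx2.2 line, -0.11, -0.37 and -0.25 in the Olig2 line and 0.23, 0.25 and 0.85 in the wild type. The 4 lowest arrays were of the Nkx2.2 line, 2 under FGF8 and 2 under RA, while its replicate 3 lay among the other groups under both factors.

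Cdh1 (E-cadherin), the cadherin of epithelia, was close to 0 in most groups and stood out in single arrays. Cdh1 read 0.19, 0.07 and 0.00 in the Lmx1a line at day 10, 0.61, -0.09 and 0.02 at day 14, 4.20, 0.32 and -0.23 in the Nkx2.2 line and 1.88, -0.01 and 1.65 in the wild type. Under RA, Cdh1 read 0.57, -0.11 and 0.01 in the Nkx2.2 line, -0.19, -0.15 and -0.19 in the Olig2 line and 0.04, -0.01 and -0.14 in the wild type. No group was uniformly high, and Cdh1 was called in none of the 21 pairs of groups. The array with the highest Cdh1, replicate 1 of Nkx2.2 cells with FGF8, also had the highest mean over 6 surface epithelium markers of all 21 arrays, at 3.33, with Epcam at 3.00, Krt8 at 6.45 and Krt19 at 4.75. The Lmx1a line at day 14 had 0.74 to 2.22 on that list, with Cdh1 at 0.61, -0.09 and 0.02. Replicates 1 and 3 of the FGF8 wild type, next highest in Cdh1 at 1.88 and 1.65, had 0.42 and 0.40 on the list. Replicate 2 of Nkx2.2 cells with FGF8 had 1.98, with Cdh1 at 0.32. Cdh15 (M-cadherin), the cadherin of skeletal muscle, read 1.35 in replicate 1 of the RA wild type and at most 0.15 in the 20 other arrays. That array also had the highest mean over 5 skeletal muscle markers, 2.63, with Myog at 3.89 and Des at 3.02. Replicate 2 of the same group had a muscle mean of 1.23, with Myog at 2.31 and Des at 1.27, and Cdh15 at -0.02. Cdh5 (VE-cadherin), a type II member and the cadherin of endothelium, read 1.15 in replicate 2 of the RA wild type, which had the highest mean over 6 endothelium markers, 0.65. Of those 6 markers Emcn alone was raised there, at 4.02, and the 5 others, Pecam1 and Tie1 among them, read between -0.04 and 0.00. Cdh5 also read 0.69 in the FGF8 replicate 1 of the Nkx2.2 line, where the endothelium list was at 0.05. The part of other cell types in these values was not tested. Cdh3 (P-cadherin) had a range of 0.35 over all arrays.

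A single array at least 1 log2 unit beyond the next of the 21 marked 7 members (12.5%), against 5.47% of all genes. Besides Cdh1 and Cdh15 these were Pcdh15 and Pcdh20 on the high side and Pcdh17, Pcdh18 and Pcdh19 on the low side. Pcdh19, a delta-2 protocadherin encoded on the X chromosome, read -4.46, 0.00 and -0.90 in the Lmx1a line at day 10, and without replicate 1 the lowest of the other arrays was -1.48. Pcdh18 read 0.00, -3.16 and 0.47 in the FGF8 wild type, with replicate 2 far below the others.

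Cdh6 (K-cadherin), a type II cadherin that marks compartments of the embryonic brain and kidney, was the member with the most uniform difference between lines and wild-type cells. Cdh6 read 0.64, -0.46 and -0.62 in the Lmx1a line at day 10, 0.00, -0.48 and 0.08 at day 14, -0.33, -1.01 and -0.25 in the Nkx2.2 line and -1.66, -2.96 and -2.09 in the wild type. Under RA, Cdh6 read 0.60, 0.68 and 1.07 in the Nkx2.2 line, 0.60, 0.52 and 0.38 in the Olig2 line and -1.43, -1.22 and -1.02 in the wild type. All 6 wild-type arrays lay below all 15 arrays of the lines, although the highest wild-type array and the lowest array of the lines differed by only 0.01. Its second probe set gave differences of the same sign in all 5 comparisons that called it. Cdh8, a type II cadherin of restricted brain nuclei and their synapses, varied more between replicates. Cdh8 read -1.42, -1.40 and -1.94 in the Lmx1a line at day 10, 0.91, 0.73 and -0.12 at day 14, 3.25, 3.25 and 0.00 in the Nkx2.2 line and 1.48, 3.15 and 0.48 in the wild type. Under RA, Cdh8 read -0.19, 0.43 and -0.93 in the Nkx2.2 line, -1.85, -0.40 and 0.02 in the Olig2 line and 1.08, 0.55 and 1.44 in the wild type. The Lmx1a line at day 10 was low in all arrays, and the Nkx2.2 line under FGF8 was high in replicates 1 and 2 while replicate 3 lay at 0.00, within the range of the other groups.

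Cdh9 and Cdh10 are closely related type II cadherins with roles at synapses. Cdh9 read 0.96, 2.07 and 0.64 in the Lmx1a line at day 10, 0.10, 0.00 and 0.03 at day 14, 1.25, -0.06 and 2.33 in the Nkx2.2 line and -0.88, 0.12 and -0.94 in the wild type. Under RA, Cdh9 read 0.02, 1.01 and -0.62 in the Nkx2.2 line, -0.94, -0.85 and -0.28 in the Olig2 line and 1.34, 0.83 and 1.49 in the wild type. The RA wild type and the Lmx1a line at day 10 were high, and the Olig2 line was low in every array. Cdh10 read -0.69, 0.94 and -0.26 in the Lmx1a line at day 10, 0.00, 0.23 and -0.06 at day 14, -0.11, -0.13 and 0.36 in the Nkx2.2 line and 0.24, 0.81 and -0.11 in the wild type. Under RA, Cdh10 read -0.02, 0.09 and -1.64 in the Nkx2.2 line, 1.07, 1.05 and 1.58 in the Olig2 line and 1.61, 1.43 and 2.01 in the wild type. It was high in the RA wild type and the Olig2 line and near 0 in most other arrays. The 3 other probe sets of Cdh10 gave differences between -0.34 and 0.39 in both comparisons that called it, so its pattern rests on 1 probe set.

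Of the other type II members, Cdh11 (OB-cadherin), a cadherin of mesenchyme that is also found in brain, passed the F test and was called in none of the 9 comparisons. Cdh11 read 0.94, 0.89 and 0.00 in the Nkx2.2 line under RA and -0.60, 0.90 and 0.64 in the RA wild type, where the mean over 7 mesenchyme markers read -0.16, 3.32 and 2.68. In the RA wild type both were lowest in replicate 1, whereas in the Nkx2.2 line under RA, where the mesenchyme mean read 0.98, 0.42 and 2.02, the array with the highest mean had the lowest Cdh11. Cdh20 passed the F test too and read -0.02, 0.74 and 0.72 in the Lmx1a line at day 14, with all other arrays between -0.15 and 0.13. Cdh7 did not pass it, and read 0.75, -0.02 and 2.45 in the Nkx2.2 line under FGF8 and 1.51, 0.31 and 0.63 in the RA wild type. Cdh22 ranged over 1.58 without passing, and Cdh18 and Cdh19 had ranges of 0.34 and 0.18.

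Cdh13 (T-cadherin) lacks the transmembrane and cytoplasmic parts of other cadherins and is held to the membrane by a lipid anchor. Cdh13 read -2.96, -2.29 and -3.84 in the Lmx1a line at day 10, -0.20, 0.30 and -0.19 at day 14, 1.40, 1.33 and -0.38 in the Nkx2.2 line and -0.77, 0.08 and -1.78 in the wild type. Under RA, Cdh13 read 1.02, 1.15 and 0.62 in the Nkx2.2 line, 0.43, 0.26 and 0.12 in the Olig2 line and 0.33, 0.00 and 0.69 in the wild type. At day 10 the Lmx1a line lay below the 18 other arrays, and at day 14 the same line was near 0. Of its 4 probe sets 2 others moved the same way in each called comparison and the fourth gave differences between -0.06 and 0.04. The other atypical members changed little: Cdh16, Cdh17 and Cdh26 had ranges of 0.19, 0.15 and 0.19, and Cdh23, which pairs with Pcdh15 in hair cells of the inner ear, exceeded 0.29 only in replicate 2 of the FGF8 wild type, at 1.20. Pcdh15 read 1.32, 3.33 and 1.49 in the Lmx1a line at day 10. It stayed at or below 0.16 in the Olig2 line and both wild-type groups. Single arrays elsewhere were high too, so these levels were not particular to 1 group. Pcdh15 reached 2.32 in Nkx2.2 cells with FGF8 (replicate 3) and 1.75 in those with RA (replicate 1). Among day 14 Lmx1a cells it reached 1.30 (replicate 3). Pcdh15 did not pass the F test.

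**Figure D2:**
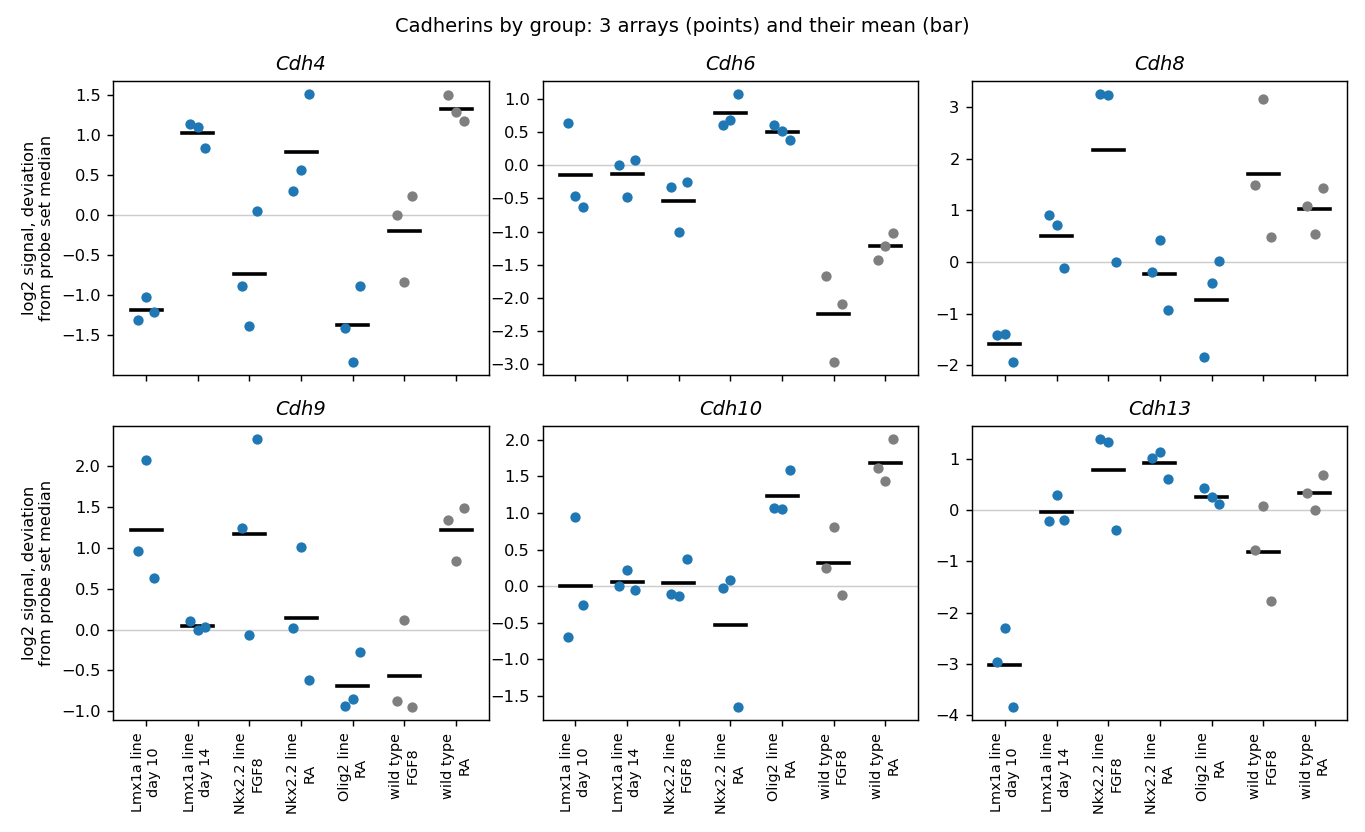
Log2 signal as a deviation from the probe set median (vertical axes, scaled per gene) of 6 cadherins in the 7 groups (horizontal axis); points are arrays, blue for engineered lines and grey for wild-type cells, and bars are means of 3 arrays. All grey points lie below all blue points for Cdh6, and the Lmx1a line at day 10 lies below every other array for Cdh13.

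Delta-1 protocadherins carry a conserved motif in their tails that binds a protein phosphatase. Pcdh11x, encoded on the X chromosome, had the largest range of all members. Pcdh11x read 0.40, 1.21 and 0.04 in the Lmx1a line at day 10, 0.85, 1.67 and 1.24 at day 14, 1.01, 0.99 and 2.18 in the Nkx2.2 line and 0.85, 0.97 and 0.43 in the wild type. Under RA, Pcdh11x read -1.09, -0.66 and -3.69 in the Nkx2.2 line, -3.72, -3.43 and -3.63 in the Olig2 line and -0.91, -1.75 and -1.46 in the wild type. All 12 arrays with FGF8 lay above all 9 arrays with RA, and the Olig2 line lay lowest together with RA replicate 3 of the Nkx2.2 line. Pcdh7 read 2.46, 2.15 and 1.91 in the Olig2 line and -0.24, -0.51 and 2.37 in the RA wild type, so the Olig2 line was high in every array while in the RA wild type only replicate 3 was. In the 5 other groups Pcdh7 stayed between -0.50 and 0.80. Pcdh9 read 1.67, 1.58 and 0.91 in the RA wild type and 0.15, -0.57 and 0.00 in the Olig2 line, and replicate 3 was the lowest array in 6 of the 7 groups, all but the Olig2 line. Pcdh1 exceeded 0.24 in 1 array only.

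Delta-2 protocadherins bind the WAVE complex, which drives actin assembly. Pcdh17 read 0.05, 0.76 and 0.00 in the Lmx1a line at day 10, 0.88, 1.77 and 0.39 at day 14, 0.40, 0.90 and -0.09 in the Nkx2.2 line and -0.51, -1.25 and -0.42 in the wild type. Under RA, Pcdh17 read 0.58, 1.62 and 0.59 in the Nkx2.2 line, -1.98, -3.69 and -1.93 in the Olig2 line and 0.36, 0.37 and 0.40 in the wild type. The Olig2 line lay below the 18 other arrays, and within it replicate 2 lay 1.71 below the next array. Pcdh10, known from basal ganglia and striatal axon growth, read -0.89, -0.52 and -0.94 in the Lmx1a line at day 10, 1.13, 2.15 and 1.25 at day 14, 1.25, 1.01 and 0.88 in the Nkx2.2 line and 0.09, 0.98 and -0.81 in the wild type. Under RA, Pcdh10 read 1.38, 1.19 and -0.28 in the Nkx2.2 line, -0.59, -0.56 and 0.00 in the Olig2 line and 1.04, 0.44 and 0.23 in the wild type. It was negative in every array of the Lmx1a line at day 10 and above 1 in every array at day 14. Pcdh8, which promotes the uptake of N-cadherin from synapses, read 0.99, 1.20 and 1.33 in the Nkx2.2 line under RA, 1.02, 0.83 and 0.92 in the Lmx1a line at day 14 and -0.30, -0.10 and -0.56 in the Olig2 line, so the former 2 groups lay above the last without overlap.

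Pcdh20, a protocadherin outside these subfamilies, marked the Nkx2.2 line. Pcdh20 read -0.04, 0.01 and -0.04 in the Lmx1a line at day 10, -0.45, 0.00 and -0.14 at day 14, 2.29, 2.60 and 1.73 in the Nkx2.2 line and -0.36, -0.48 and -0.01 in the wild type. Under RA, Pcdh20 read 1.17, 3.62 and 2.201 in the Nkx2.2 line, -0.14, -0.49 and -0.14 in the Olig2 line and -0.17, 0.86 and -0.15 in the wild type. All 6 arrays of the Nkx2.2 line lay above the 15 others, the nearest of which was replicate 2 of the RA wild type at 0.86. Its second probe set was higher in the Nkx2.2 line in each comparison that called it. Pcdh12 had a range of 0.20.

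The clustered members were 22 genes of the Pcdhb cluster and Pcdhgc4 of the gamma cluster. Their coding sequences are much alike, so signals may be shared between neighbours in the cluster, which the values cannot show. Pcdhb7 read -1.34, -0.24 and -0.78 in the Lmx1a line at day 10, 0.27, 0.30 and 0.32 at day 14, 0.12, 0.22 and 0.14 in the Nkx2.2 line and 0.00, 0.00 and -0.77 in the wild type. Under RA, Pcdhb7 read -0.23, -0.10 and -0.93 in the Nkx2.2 line, -0.19, -0.04 and 0.70 in the Olig2 line and 1.29, 1.09 and 1.38 in the wild type. The RA wild type lay above the 18 other arrays. Pcdhb9 read -1.81, -1.02 and -1.07 in the Lmx1a line at day 10, 0.22, 0.45 and 0.19 at day 14, 0.81, 1.02 and 0.45 in the Nkx2.2 line and 0.41, 0.67 and -0.34 in the wild type. Under RA, Pcdhb9 read 0.00, -0.01 and -0.91 in the Nkx2.2 line, -0.43, 0.01 and -0.35 in the Olig2 line and 0.33, -0.04 and 0.20 in the wild type. The Lmx1a line at day 10 lay below every other array, the nearest of which was RA replicate 3 of the Nkx2.2 line. Pcdhb10 read -1.22, -0.51 and -0.99 in the Lmx1a line at day 10 and 0.12, 0.82 and 0.20 in the Nkx2.2 line under FGF8, and Pcdhb21 read 1.22, 1.05 and 0.69 in the RA wild type and -0.02, -0.86 and 0.12 in the Olig2 line. Pcdhb3 read -0.74, -0.53 and -0.62 in the Lmx1a line at day 10 and 0.63, 0.46 and 0.74 in the RA wild type. Pcdhgc4 read 1.05, 1.03 and 1.28 in the Nkx2.2 line under FGF8 and -1.14, -0.92 and -0.28 in the Olig2 line. Pcdhb7, Pcdhb9, Pcdhb10, Pcdhb3 and Pcdhgc4 passed the F test, and Pcdhb21 and the 17 other clustered members did not. Of all 23, 8 ranged over at least 2 log2 units and 6 over less than 1.

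**Figure D3:**
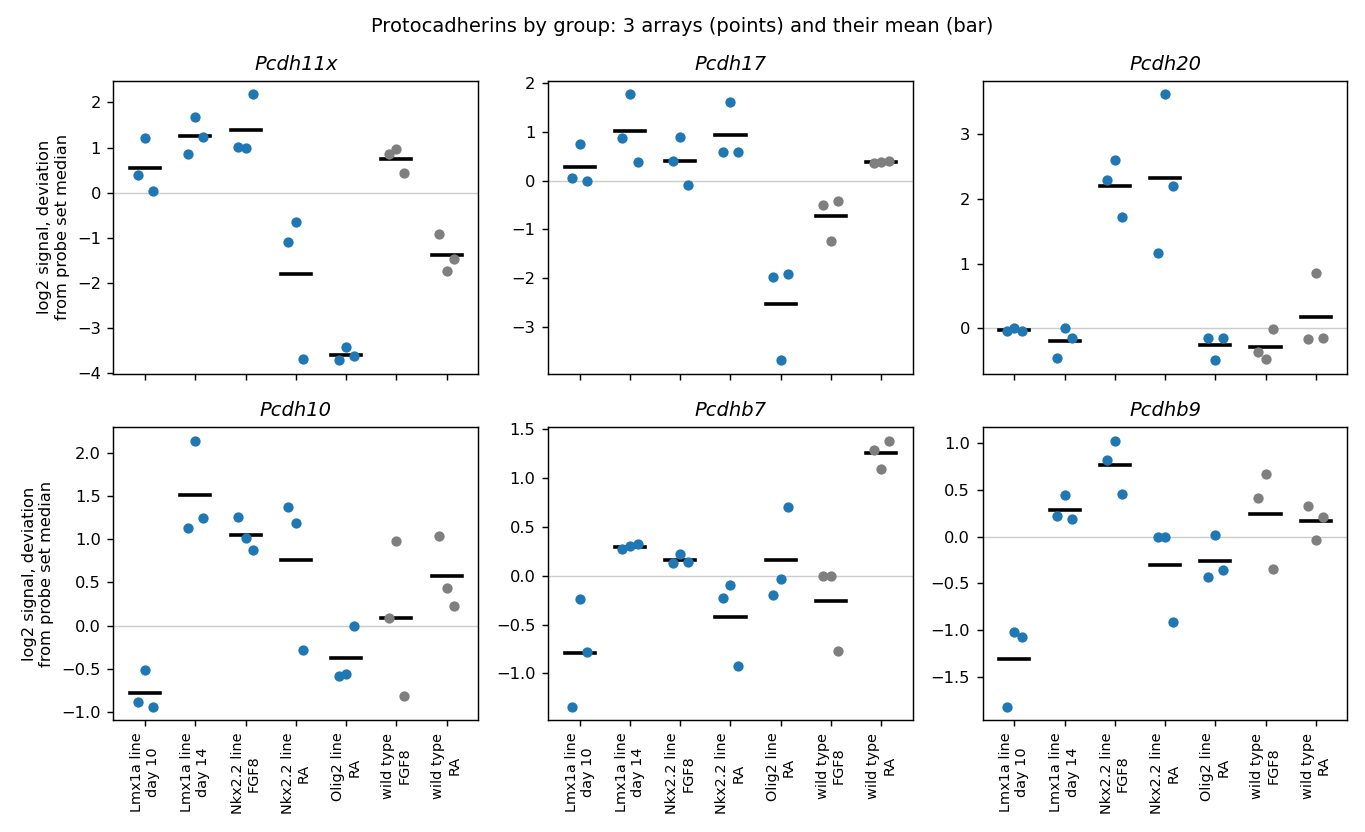
Log2 signal as a deviation from the probe set median (vertical axes, scaled per gene) of 6 protocadherins in the 7 groups (horizontal axis); points are arrays, blue for engineered lines and grey for wild-type cells, and bars are means of 3 arrays. Pcdh20 is highest in the 6 arrays of the Nkx2.2 line, Pcdh17 is lowest in the Olig2 line, and Pcdh11x is higher in the 4 groups with FGF8 than in the 3 with RA.

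In the comparisons that follow, each difference is the first group minus the second on the log2 scale with its standard error, from 3 arrays per group and 1 spread per gene over all 21 arrays. Calls required an adjusted p under 0.05 over all 18193 genes and a difference of at least 1. Comparisons that share a group are not independent, and the 4 contrasts between lines and wild-type cells use 2 wild-type groups.

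At day 10, neurons of the Lmx1a line were set against FGF8 wild-type neurons to see which genes go with the dopaminergic line. Cdh6 was higher in the Lmx1a line, and Cdh8, Cdh13 and Pcdhb9 were lower. These 4 genes are 7.14% of the members, and 3.31% of all genes were called. The difference was 2.09 ± 0.34 (adjusted p = 0.0022) for Cdh6, -3.29 ± 0.81 (adjusted p = 0.0302) for Cdh8, -2.21 ± 0.50 (adjusted p = 0.0182) for Cdh13 and -1.55 ± 0.29 (adjusted p = 0.00582) for Pcdhb9. Markers of other cells and states were called too. Higher in the Lmx1a line were Slc1a3 (3.21) of 5 astroglia genes, Twist1 of 7 mesenchyme genes and Kdr (1.66) of 6 endothelium genes. Lower were Pax6 (-4.12) of 7 progenitor genes and Esrrb (-1.78) of 5 pluripotent genes. The median difference was 0.02, -1.07 and 0.04 over the astroglia, mesenchyme and endothelium lists and 0.35 and 0.03 over the progenitor and pluripotent lists. The part of these cells was not tested. Cdh4 at -0.98 ± 0.37 (adjusted p = 0.172) and Cdh9 at 1.79 ± 0.54 (adjusted p = 0.076) were not called. Cdh6 and Pcdhb9 kept their calls without each array in turn. Cdh13 lost its call without replicate 3 of the Lmx1a line (adjusted p = 0.0643) or replicate 1 or 2 of the wild type (adjusted p = 0.0643 and 0.0591), and Cdh8 lost it without any array other than replicate 3 of the wild type, with adjusted p from 0.0556 to 0.0948. Within batch A, with 3 arrays against 2, Cdh6 (2.17, adjusted p = 0.102) and Cdh13 (-2.69, adjusted p = 0.0513) lost their calls, and with probe sets without a name suffix Cdh13 did (-1.37, adjusted p = 0.108). Without the 3 arrays that stood apart Cdh13, Cdh8 and Pcdhb9 lost theirs, at -1.79, -2.65 and -1.08 with adjusted p = 0.102, 0.137 and 0.0826.

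The same wild type served for the Nkx2.2 line under FGF8, to see which genes go with the serotonergic line. Pcdh20 and Cdh6 were higher, and they were the members called. These 2 genes are 3.57% of the members, and 4.53% of all genes were called. The difference was 2.49 ± 0.44 (adjusted p = 0.00289) for Pcdh20 and 1.71 ± 0.34 (adjusted p = 0.00626) for Cdh6, and both kept their calls without each array in turn. Within batch B, with 3 arrays against 1, Pcdh20 was at 2.22 and lost its call (adjusted p = 0.278), and Cdh6 lost its call with only the 6 arrays compared (adjusted p = 0.098). Markers of other cells and states were called in the same comparison. Higher were 2 of 5 astroglia genes, Aqp4 at 4.53 and Aldh1l1 at 2.72, and 1 of 7 mesenchyme genes, Dcn at 4.22. Lower were Pax6 (-5.20) of 7 progenitor genes and Esrrb (-1.88) of 5 pluripotent genes. Aqp4 read 5.49, 3.41 and 4.42 in the Nkx2.2 line under FGF8 and 3.46, 4.77 and 5.12 under RA, and at most 1.36 in the 15 other arrays, so that it set the 6 arrays of this line apart as Pcdh20 did. The mean over the astroglia list was 0.19 to 1.52 in this group and -1.80 to -0.91 in the wild type, and over the mesenchyme list -0.27 to 1.43 and -1.65 to 0.14. Their part in the members' differences was not tested. Cdh13 differed by 1.60 ± 0.50 (adjusted p = 0.068) and Cdh9 by 1.74 ± 0.54 (adjusted p = 0.0679), and neither was called.

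At day 8, neurons of the Olig2 line were compared with RA wild-type neurons to see which genes go with the motor neuron line. Cdh6 was higher in the Olig2 line, and Pcdh17, Cdh4, Pcdh11x, Cdh9, Pcdh9, Pcdhb21 and Pcdhb7 were lower. These 8 genes are 14.3% of the members, and 10.4% of all genes were called. The higher gene, Cdh6, differed by 1.72 ± 0.34 (adjusted p = 0.00266). The largest lower values were -2.91 ± 0.47 (adjusted p = 0.000632) for Pcdh17, -2.70 ± 0.37 (adjusted p = 0.000177) for Cdh4 and -2.22 ± 0.59 (adjusted p = 0.0174) for Pcdh11x, members of the delta-2, type I and delta-1 subfamilies. Cdh9 was at -1.91 ± 0.54 (adjusted p = 0.0232), Pcdh9 at -1.53 ± 0.49 (adjusted p = 0.0461), Pcdhb21 at -1.24 ± 0.31 (adjusted p = 0.0114) and Pcdhb7 at -1.10 ± 0.29 (adjusted p = 0.0168). Markers of other cells and states were called as well. Lower in the Olig2 line were 3 of 5 skeletal muscle genes (Ttn -3.17, Myog -2.30 and Des -1.66). So were 2 of 7 mesenchyme genes (Col1a2 -4.44 and Dcn -3.96) and 1 of 5 astroglia genes (Aldh1l1 -2.83). Pax6 (-3.53) of 7 progenitor genes, Esrrb (-4.39) of 5 pluripotent genes and Elavl3 (-1.36) of 8 neuron genes were lower too. Of 3 neural crest and Schwann genes Erbb3 was higher (1.48) and Foxd3 was lower (-1.83). The muscle mean was -0.05 to 0.00 in the Olig2 line and 0.48 to 2.63 in the wild type, and the mesenchyme mean was -0.75 to 0.00 and -0.16 to 3.32. Their part in the lower values of the 7 members was not tested. The median difference over the 56 members was -0.158, and over all genes it was 0.043. Cdh6, Pcdh17 and Cdh4 kept their calls without each array in turn. Pcdh11x lost its call without replicate 1 of the Olig2 line (adjusted p = 0.0584) or replicate 1 of the wild type (adjusted p = 0.0761). Pcdhb21 lost it without replicate 2 of the Olig2 line (adjusted p = 0.0674) or replicate 1 of the wild type (adjusted p = 0.0532), and Pcdhb7 without replicate 1 or 2 of the Olig2 line (adjusted p = 0.0828 and 0.0715) or replicate 1 of the wild type (adjusted p = 0.0546). Cdh9 lost its call without replicate 1 or 2 of the Olig2 line or replicate 1 or 3 of the wild type (adjusted p = 0.065 to 0.0822), and Pcdh9 without any array other than replicate 3 of the wild type (adjusted p = 0.0751 to 0.17) and with the mean of its probe sets (adjusted p = 0.108). With the batch as a block Cdh9, Pcdh9 and Pcdhb7 lost their calls (adjusted p = 0.0765, 0.0606 and 0.0636), and within batch B, with 1 array against 3, none of the 8 was called, at differences of 1.60 for Cdh6, -2.30 for Pcdh17 and -2.21 for Cdh4 (limma, adjusted p = 0.0518, 0.0539 and 0.121), and 6 members had an unadjusted p under 0.05.

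For the Nkx2.2 line under RA against the RA wild type, which also differ in day (10 against 8), the question was again which genes go with the serotonergic line. Pcdh20, Cdh6 and Pcdh8 were higher and Cdh10, Pcdhb7 and Cdh2 were lower. These 6 genes are 10.7% of the members, and 18% of all genes were called, a larger share than among the members. Pcdh20 differed by 2.15 ± 0.44 (adjusted p = 0.00178), Cdh6 by 2.01 ± 0.34 (adjusted p = 0.00039) and Pcdh8 by 1.10 ± 0.26 (adjusted p = 0.00415). Lower values were -2.21 ± 0.44 (adjusted p = 0.00132) for Cdh10, -1.67 ± 0.29 (adjusted p = 0.000493) for Pcdhb7 and -1.01 ± 0.33 (adjusted p = 0.0318) for Cdh2. Markers of other cells and states were called beside them. Higher were 2 of 5 astroglia genes (Aqp4 4.31 and Aldh1l1 2.02) and 2 of 7 progenitor genes (Sox2 1.78 and Vim 1.32), and Pax6 of the latter list was lower. Lower were also 3 of 5 skeletal muscle genes (Ttn -3.21, Myog -2.33 and Des -1.63) and 2 of 8 neuron genes (Elavl3 -3.06 and Tubb3 -1.33), while the neuron gene Ncam1 was higher. Esrrb (-4.99) of 5 pluripotent genes and Foxd3 (-2.62) of 3 neural crest and Schwann genes were lower too. The astroglia mean was 1.69 to 2.01 in the Nkx2.2 line and -0.67 to 0.97 in the wild type, and the neuron mean was -0.51 to -0.05 and -0.03 to 0.54. Their part in the members' differences was not tested. The arrays of the groups overlapped for Cdh2, and its call was lost without replicate 1 or 2 of the Nkx2.2 line or replicate 3 of the wild type (adjusted p = 0.154, 0.138 and 0.128), without the 3 arrays that stood apart (adjusted p = 0.0556) and within batch B (adjusted p = 0.144). Cdh6 and Pcdhb7 were called in every alternative. The mean of all probe sets brought Cdh10 to -0.58, Cdh2 to -0.87 and Pcdh8 to 0.72, each under 1 in size, and the probe set of Pcdh8 without a name suffix gave 0.34 (adjusted p = 0.487). The effect of the line was also compared between RA and FGF8 with an interaction fitted over all genes, which called 2 members, Pcdhb7 and Cdh9, and 4.38% of all genes. Pcdh20 lost its call in a fit of batch B alone, which holds all 6 arrays, at 2.15 (adjusted p = 0.0516). Of 15 alternatives 13 kept the call of Pcdh20, and the largest limma adjusted p over all 15 was 0.123.

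The Lmx1a line was followed from day 10, which the labels call immature, to day 14, called mature. Cdh13, Pcdh10, Cdh4, Pcdhb9, Pcdhb7 and Pcdh8 were higher at day 14, so that every called member was higher at the later day. These 6 genes are 10.7% of the members, and 4.24% of all genes were called, with 2.96% higher at day 14. Cdh13 differed by 3.00 ± 0.50 (adjusted p = 0.002), Pcdh10 by 2.29 ± 0.45 (adjusted p = 0.00647), Cdh4 by 2.21 ± 0.37 (adjusted p = 0.00222) and Pcdhb9 by 1.59 ± 0.29 (adjusted p = 0.00384), and these 4 were called in every alternative. Pcdhb7 at 1.08 ± 0.29 (adjusted p = 0.0361) and Pcdh8 at 1.01 ± 0.26 (adjusted p = 0.0264) lay near the threshold. Pcdhb7 lost its call without any of the 6 arrays except replicate 2 of day 10 (adjusted p = 0.0538 to 0.118) and blocked by batch (adjusted p = 0.0581), and Pcdh8 without any array other than replicate 1 of day 10 (adjusted p = 0.0579 to 0.0918) and with the mean of its probe sets, at 0.87. The mean over 5 dopaminergic markers lay between 1.83 and 2.44 at day 10 and between 2.87 and 4.14 at day 14. Of these Slc6a3 alone was called (4.26), while Th read 5.55, 6.41 and 5.30 at day 10 and 4.38, 5.20 and 3.485 at day 14. Over 4 serotonergic markers the mean lay between -2.61 and 0.17 at day 10 and between 0.01 and 1.61 at day 14. Gata3 of that list was called (2.38). The mean over 5 astroglia markers lay between -0.87 and -0.37 at day 10 and between 0.31 and 1.09 at day 14. Of those, 2 were called (Aldh1l1 2.63 and Fabp7 1.56). Their part in these differences was not tested.

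For the Nkx2.2 line, day 10 neurons under FGF8 were compared with those under RA, to set rostral against caudal serotonergic neurons. Pcdh11x and Pcdhb9 were higher under FGF8, and Cdh4 and Cdh6 were lower. These 4 genes are 7.14% of the members, and 4.31% of all genes were called. The difference was 3.21 ± 0.59 (adjusted p = 0.004) for Pcdh11x, 1.07 ± 0.29 (adjusted p = 0.0371) for Pcdhb9, -1.53 ± 0.37 (adjusted p = 0.0205) for Cdh4 and -1.31 ± 0.34 (adjusted p = 0.0284) for Cdh6. Pcdh20 lay at -0.12 ± 0.44 (adjusted p = 0.891), and its arrays overlapped. Pcdh11x kept its call without each array in turn. Pcdhb9 lost it without replicate 1 or 2 under FGF8 (adjusted p = 0.096 and 0.135) or replicate 3 under RA (adjusted p = 0.134), and Cdh4 without the same arrays (adjusted p = 0.0674, 0.1 and 0.0756) or with the mean of its probe sets, at -0.98. Of 5 somatic motor neuron markers Isl1 (7.20) and Slc18a3 (3.05) were called higher under FGF8. The neuron markers Elavl3 and Tubb3 were higher under FGF8 too (1.32 and 1.30). Ncam1 was lower, as was the astroglia marker Aldh1l1 (-2.27). The part of all these markers was not tested. Cdh6 lost its call without replicate 2 under FGF8 (adjusted p = 0.126) or any array under RA (adjusted p = 0.0545 to 0.0844). With only the 6 arrays compared, all of them in batch B, none of the 4 was called (limma, adjusted p = 0.0767 for Cdh6 to 0.224 for Cdh4), and 8 members had an unadjusted p under 0.05.

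Dopaminergic and serotonergic lines were set against each other at day 10 with SHH and FGF8. Cdh13, Cdh8, Pcdh20, Pcdhb9, Pcdh10 and Pcdhb10 were lower in the Lmx1a line, so that every called member was higher in the Nkx2.2 line. These 6 genes are 10.7% of the members, and 5.07% of all genes were called, with 2.87% lower in the Lmx1a line. Cdh13 was at -3.81 ± 0.50 (adjusted p = 0.00038), Cdh8 at -3.75 ± 0.81 (adjusted p = 0.01) and Pcdh20 at -2.23 ± 0.44 (adjusted p = 0.00666). The others were at -2.06 ± 0.29 (adjusted p = 0.00072) for Pcdhb9, -1.83 ± 0.45 (adjusted p = 0.0214) for Pcdh10 and -1.29 ± 0.33 (adjusted p = 0.0253) for Pcdhb10. The median over the members was -0.129 and over all genes 0.034. Astroglia markers were lower in the Lmx1a line too, with 2 of 5 called (Aqp4 -4.52 and Aldh1l1 -2.32), and of 7 mesenchyme markers Dcn (-4.64) and Pdgfra (-2.85) were lower and Twist1 was higher, and of 6 endothelium markers Kdr was higher. Their part was not tested. No batch holds both groups, so there is no within-batch value. Fitted with the batch as a block, which the other groups allow, Pcdh20, Pcdh10 and Pcdhb10 lost their calls at -2.01, -2.22 and -1.55 (adjusted p = 0.0775, 0.0566 and 0.0669). With the mean of its probe sets Pcdh10 was at -0.79 (adjusted p = 0.101), and 3 of its 5 other probe sets lay between -0.13 and 0.01. Cdh13, Pcdhb9 and Pcdh20 kept their calls without each array in turn. Cdh8 lost its call without replicate 1 or 2 of the Nkx2.2 line (adjusted p = 0.0587 and 0.0546), Pcdh10 without these (adjusted p = 0.0848 and 0.0624) or replicate 3 of the Lmx1a line (adjusted p = 0.0558), and Pcdhb10 without any array other than replicate 2 of the Lmx1a line or replicate 3 of the Nkx2.2 line (adjusted p = 0.0512 to 0.119). Without the 3 arrays that stood apart, Cdh8, Pcdh20, Pcdh10 and Pcdhb10 lost their calls (adjusted p = 0.0503, 0.052, 0.085 and 0.072).

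Serotonergic and motor neuron lines under SHH and RA were compared at day 10 against day 8, so day and line cannot be told apart. Pcdh17, Pcdh20, Cdh4, Pcdh11x and Pcdh8 were higher in the Nkx2.2 line, and Pcdh7 and Cdh10 were higher in the Olig2 line. These 7 genes are 12.5% of the members, and 13.1% of all genes were called. Pcdh17 differed by 3.46 ± 0.47 (adjusted p = 7.67e-05) and was called in every alternative. Pcdh20 was at 2.59 ± 0.44 (adjusted p = 0.000581), Cdh4 at 2.17 ± 0.37 (adjusted p = 0.000579), Pcdh8 at 1.49 ± 0.26 (adjusted p = 0.000583) and Pcdh11x at 1.78 ± 0.59 (adjusted p = 0.0445). Higher in the Nkx2.2 line were also 2 of 5 astroglia markers (Aldh1l1 4.84 and Aqp4 4.64) and 3 of 7 mesenchyme markers (Col1a2 3.90, Lum 3.53 and Dcn 3.36), and of 8 neuron markers Ncam1 was higher and Elavl3 was lower. Their part was not tested. In the direction of the Olig2 line Pcdh7 was at -1.85 ± 0.57 (adjusted p = 0.0312) and Cdh10 at -1.76 ± 0.44 (adjusted p = 0.00889). Pcdh20, Cdh4, Pcdh8 and Cdh10 kept their calls without each array in turn. The arrays overlapped for Pcdh11x, which lost its call without any array other than replicate 3 of the Nkx2.2 line (adjusted p = 0.0866 to 0.214) and blocked by batch (adjusted p = 0.0916). Pcdh7 lost its call without replicate 3 of the Nkx2.2 line (adjusted p = 0.125) or any array of the Olig2 line (adjusted p = 0.0505 to 0.104) and blocked by batch (adjusted p = 0.105). Within batch B, with 3 arrays against 1, Cdh4 lost its call at 1.68 and Pcdh20 at 2.47 (adjusted p = 0.187 and 0.183), and the mean of all probe sets brought Cdh10 to -0.41.

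The wild-type groups, one with RA at day 8 and one with FGF8 at day 10, differ in factor and day together. Cdh9, Cdh4 and Pcdhb7 were higher with RA, and Pcdh11x was lower. These 4 genes are 7.14% of the members, and 7.40% of all genes were called. Pcdhb7 differed by 1.51 ± 0.29 (adjusted p = 0.00372) and was called in every alternative. Cdh9 was at 1.79 ± 0.54 (adjusted p = 0.0425), Cdh4 at 1.52 ± 0.37 (adjusted p = 0.0153) and Pcdh11x at -2.13 ± 0.59 (adjusted p = 0.0297). The mean over 5 skeletal muscle markers was 0.48 to 2.63 in the RA wild type and 0.06 to 0.26 in the FGF8 wild type, with Myod1 at 1.04, 0.03 and -0.02 and 0.00, 0.04 and -0.03, and 3 of the 5 were called higher with RA (Ttn, Myog and Des). The mean over 7 mesenchyme markers was -0.16 to 3.32 and -1.65 to 0.14, with Dcn and Pdgfra called higher with RA, as were 2 of 5 astroglia markers (Slc1a3 and Aldh1l1). The part of these cells in the members' differences was not tested. Cdh4 lost its call without replicate 2 of the FGF8 wild type (adjusted p = 0.0535) or replicate 1 of the RA wild type (adjusted p = 0.0574), and with the mean of its probe sets, at 0.79. Cdh9 lost it without any array other than replicate 2 of the FGF8 wild type (adjusted p = 0.0703 to 0.136), and with the replicate number as a block (adjusted p = 0.0616). Pcdh11x lost it without any array other than replicate 1 of the RA wild type (adjusted p = 0.061 to 0.111). With the batch as a block all but Pcdhb7 lost their calls (adjusted p = 0.0904 for Cdh4, 0.11 for Pcdh11x and 0.119 for Cdh9).

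**Figure D4:**
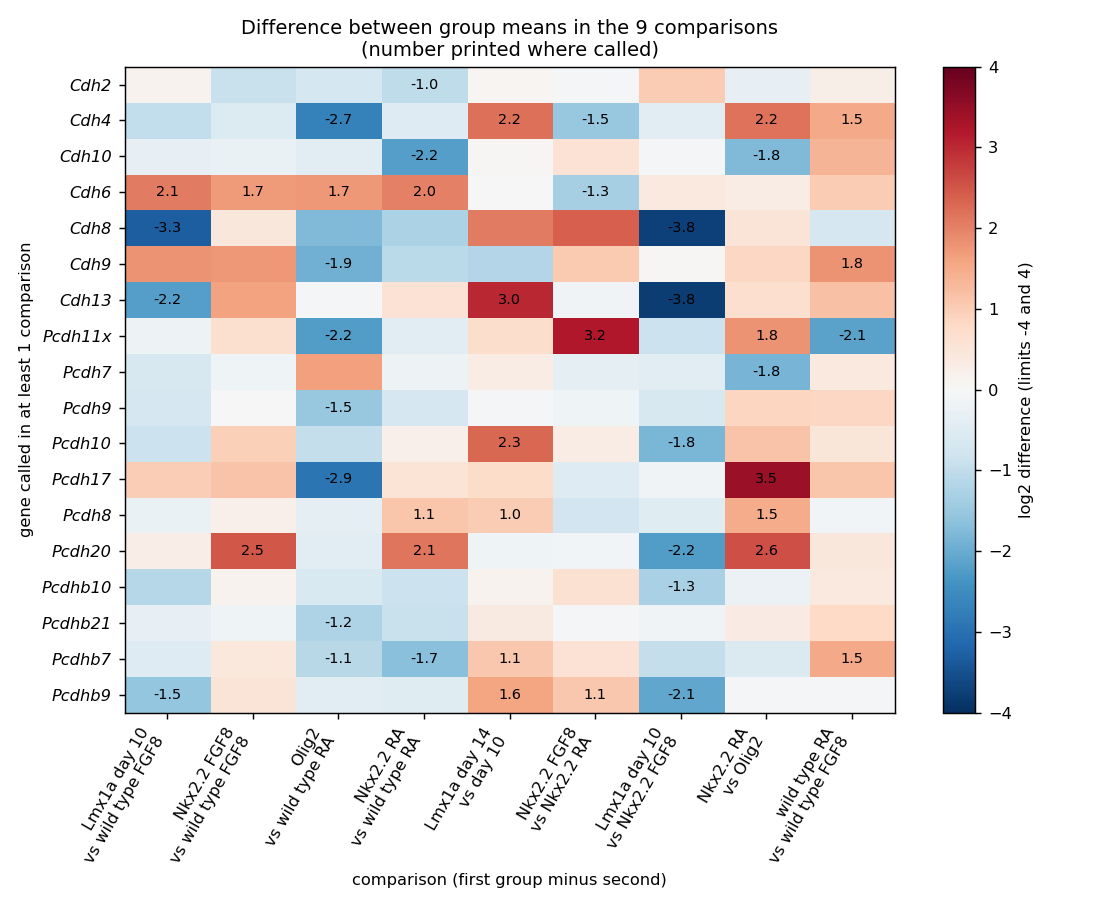
Log2 difference of group means (colour, from -4 in blue to 4 in red) of the 18 genes called in at least 1 of the 9 comparisons (rows, by subfamily; columns are comparisons, first group minus second), with the value printed where the gene was called. Cdh6 is called higher in all 4 contrasts between lines and wild-type cells, Pcdh20 is called in 4 comparisons, each time higher in the Nkx2.2 line, and the column of day 14 against day 10 holds 6 calls, all higher.

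**Figure D5:**
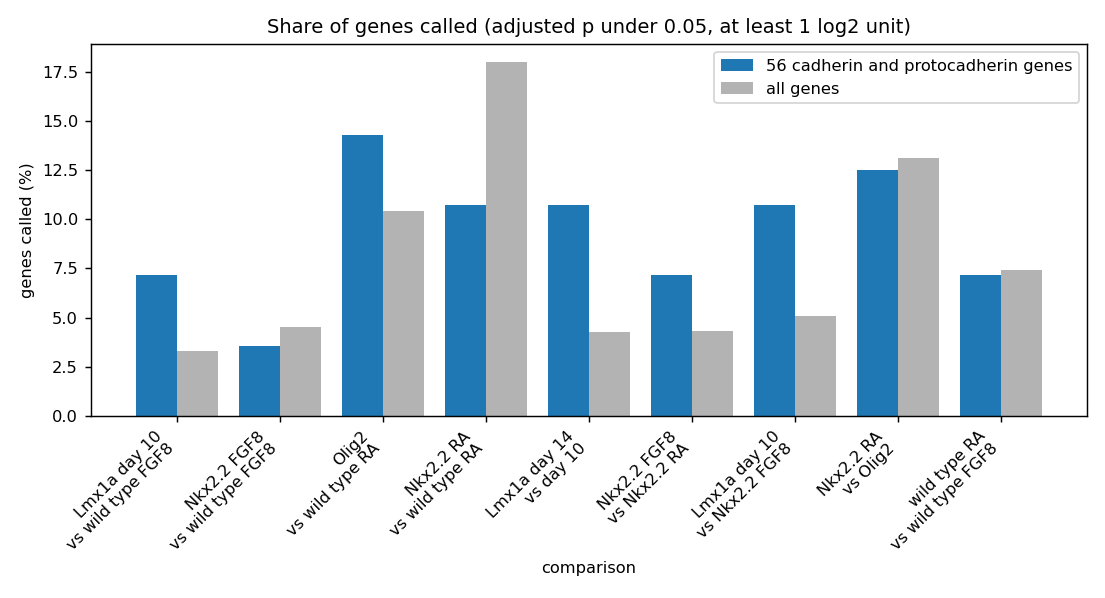
Percentage of genes called (vertical axis, from 0) in each of the 9 comparisons (horizontal axis), with blue bars for the 56 cadherin and protocadherin genes and grey bars for all 18193 genes. The blue bar is higher for the Lmx1a line against the wild type (7.14% and 3.31%) and lower for the Nkx2.2 line under RA against the wild type (10.7% and 18%).

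Each group was then described by the members whose 3 arrays all lay above or all below the 18 arrays of the other groups, with the number of its 6 contrasts with other groups that called them. These calls use the same values that picked the members, and the 6 contrasts share a group. The numbers of calls are therefore a description and no separate support. The Lmx1a line at day 10 had Cdh13 and Pcdhb9 at its low end (0.555% of all genes lay so), called in 6 and 5 of 6 contrasts. The Olig2 line had Pcdh17 at its low end (1.29% of all genes), called in 6 of 6, and none at its high end (2.89%). The FGF8 wild type had Cdh6 at its low end (0.654% of all genes), called in 5 of 6, the exception being the RA wild type (adjusted p = 0.066). The RA wild type had Pcdhb7 and Pcdhb21 at its high end (3.08% of all genes), called in 5 and 2 of 6, and none at its low end (3.99%). The Lmx1a line at day 10 had none at its high end (0.313%), nor had the FGF8 wild type (0.643%). The 3 other groups had none at either end, where the shares of all genes on the high and low side were 0.995% and 0.577% in the Lmx1a line at day 14, 0.352% and 0.0879% in the Nkx2.2 line under FGF8, and 2.22% and 2.24% under RA. The gap to the nearest other array was 0.68 for Pcdh17, 0.51 for Cdh13, 0.39 for Pcdhb7, 0.23 for Cdh6, 0.11 for Pcdhb9 and 0.08 for Pcdhb21, so the last 2 rest on small gaps.

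The levels of Cdh6 and Pcdh20 each set 2 groups apart together. The order of the group means of Cdh6 was FGF8 wild type (-2.24 ± 0.66, SD, n = 3), RA wild type (-1.22 ± 0.20), Nkx2.2 line under FGF8 (-0.53 ± 0.42), Lmx1a line at day 10 (-0.15 ± 0.69) and day 14 (-0.13 ± 0.30), Olig2 line (0.50 ± 0.12) and Nkx2.2 line under RA (0.78 ± 0.25). The arrays of the Lmx1a line overlapped between days and with those of the Nkx2.2 line under FGF8. Pcdh20 had means of 2.204 ± 0.44 in the Nkx2.2 line under FGF8 and 2.33 ± 1.23 under RA, and the next group mean was 0.18 ± 0.59 in the RA wild type. The 12 pairs of groups outside the 9 comparisons give the remaining background. For the Lmx1a line at day 10 the share of all genes called was 12.9% against the Nkx2.2 line under RA, 8.60% against the Olig2 line and 8.23% against the RA wild type. Of the members 12.5%, 12.5% and 21.4% were called in these pairs. At day 14 the share of all genes was 4.30% and 5.84% against the Nkx2.2 line under FGF8 and RA, 11.0% against the Olig2 line, and 9.82% and 11.5% against the FGF8 and RA wild type. The shares of the members were 3.57%, 5.36%, 14.3%, 7.14% and 8.93% in the same order. For Nkx2.2 cells with FGF8 the share of all genes was 6.48% against the Olig2 line and 11.6% against the RA wild type, with 14.3% and 10.7% of the members. Against the FGF8 wild type it was 15.5% for the Nkx2.2 line under RA and 5.88% for the Olig2 line, with 8.93% and 7.14% of the members. Over all 21 pairs, Pcdh11x was called in 14, Cdh4 in 11, Cdh6 and Pcdh20 in 10 each, and Pcdh17 in 8. Over the 9 comparisons there were 47 calls of 18 members, and 8 of these calls held in every alternative. Neither this total nor the counts over 21 pairs were set against all genes, so they do not set the members apart. By comparison, the members' share lay above that of all genes in some and below it in others. It was 10.7% against 4.24% between the days of the Lmx1a line. For Nkx2.2 cells with FGF8 against their wild type it was 3.57% against 4.53%.

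Catenins, long cadherins and other partners were read from lists of genes beside the members. Of 11 catenins and junction partners 8 passed the F test (72.7%), and of 8 long and seven-pass cadherins 6 did (75.0%), where 41.3% of all genes passed. Fat4, a giant cadherin of planar polarity, was lower in each line than in its wild type: -1.16 ± 0.29 (adjusted p = 0.0345) in the Lmx1a line, -1.87 ± 0.29 (adjusted p = 0.00121) and -3.45 ± 0.29 (adjusted p = 1.11e-06) in the Nkx2.2 line under FGF8 and RA, and -2.64 ± 0.29 (adjusted p = 2.61e-05) in the Olig2 line. In the Nkx2.2 line under RA against the wild type 2 of 11 catenin genes were called, which is 18.2% and close to the 18% of all genes. Both were lower, namely Ctnnd1 (p120-catenin, which keeps cadherins at the surface) at -2.22 ± 0.42 (adjusted p = 0.00099) and Jup (plakoglobin) at -2.22 ± 0.34 (adjusted p = 0.000161). In the Olig2 line 3 of 11 were called (27.3%, with 10.4% of all genes): Vcl (vinculin) was higher at 2.79 ± 0.60 (adjusted p = 0.00507), and Ctnnd2 (delta-catenin of neurons) and Jup were lower at -2.45 ± 0.31 (adjusted p = 8.19e-05) and -1.04 ± 0.34 (adjusted p = 0.0457). In the wild type with RA 4 of 11 were called (36.4%, with 7.40% of all genes), with Jup and Ctnnd2 higher (1.65 ± 0.34 (adjusted p = 0.00541) and 1.04 ± 0.31 (adjusted p = 0.0403)) and Arvcf and Ctnnb1 (beta-catenin) lower (-1.83 ± 0.55 (adjusted p = 0.0419) and -1.30 ± 0.31 (adjusted p = 0.0147)). Between the Nkx2.2 and Olig2 lines under RA 4 of 11 were called as well (36.4%, with 13.1% of all genes), and Ctnnd2 was higher in the Nkx2.2 line (1.77 ± 0.31 (adjusted p = 0.000678)) and Vcl, Ctnnd1 and Jup were lower (-2.35 ± 0.60 (adjusted p = 0.0109), -1.66 ± 0.42 (adjusted p = 0.0105) and -1.18 ± 0.34 (adjusted p = 0.0201)).

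Of 8 long and seven-pass cadherins, 4 were called in the Nkx2.2 line under RA against wild-type cells, all lower, where 18% of all genes were called in either direction. These were Fat4, Celsr2 at -2.33 ± 0.43 (adjusted p = 0.000746), Celsr3 at -1.76 ± 0.31 (adjusted p = 0.000492) and Dchs1, the ligand of Fat4, at -1.45 ± 0.39 (adjusted p = 0.011). In the Olig2 line 3 were lower (37.5%, with 10.4% of all genes called), namely Fat4, Celsr2 at -2.40 ± 0.43 (adjusted p = 0.00135) and Dchs1 at -1.43 ± 0.39 (adjusted p = 0.0197), and the list median was -0.952 where that of all genes was 0.043. Among 4 nectins, adhesion molecules that join cadherins at junctions, Nectin3 was higher in the Lmx1a line than in wild-type cells (3.50 ± 0.72 (adjusted p = 0.0107)) and in the Nkx2.2 line under RA (3.02 ± 0.72 (adjusted p = 0.00509)), and Nectin1 was lower in the Olig2 line (-2.36 ± 0.46 (adjusted p = 0.00264)) and in the Nkx2.2 line under RA (-3.64 ± 0.46 (adjusted p = 4.03e-05)), where Nectin2 was lower too (-1.02 ± 0.33 (adjusted p = 0.0321)). Of 5 desmosomal cadherins Dsc2 and Dsg2 were higher in the Nkx2.2 line under RA than in wild-type cells, at 2.70 ± 0.46 (adjusted p = 0.00038) and 2.76 ± 0.89 (adjusted p = 0.0304). Of 6 calsyntenins and related genes, Clstn2 was higher in the Lmx1a line and in the Nkx2.2 line under FGF8 than in wild-type cells (2.34 ± 0.31 (adjusted p = 0.000527) and 1.50 ± 0.31 (adjusted p = 0.00828)). Both contrasts share the FGF8 wild type, and Clstn2 was also called higher in the RA wild type than in that group (1.48 ± 0.31). Clstn3 was lower in both lines under RA (-2.17 ± 0.38 (adjusted p = 0.00129) in the Olig2 line and -1.93 ± 0.38 (adjusted p = 0.00136) in the Nkx2.2 line, where Clstn1 was lower too). The contrasts of lines under RA share the RA wild type, which was itself higher than the FGF8 wild type for several of these genes. Those were Fat4 (1.60), Dchs1 (1.385), Nectin1 (2.53) and Clstn3 (2.41), while Celsr2 was not called there. In that comparison, where factor and day differ together, 3 of 8 long cadherins were called (37.5%, with 7.40% of all genes).

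Of 5 factors known to repress Cdh1, Twist1 was higher in the Lmx1a line at day 10 than in wild-type cells (3.24 ± 0.77 (adjusted p = 0.0264)), where Cdh1 differed by -1.09 ± 0.80 (adjusted p = 0.57). Of 5 factors of clustered protocadherin promoter choice, Dnmt3b, a DNA methyltransferase, was lower in the Lmx1a line (-1.87 ± 0.47 (adjusted p = 0.0345)) and in the Nkx2.2 line under FGF8 (-2.31 ± 0.47 (adjusted p = 0.00762)) than in wild-type cells. Both contrasts share the FGF8 wild type, and Dnmt3b was also called lower in the RA wild type than in that group (-2.52 ± 0.47). Wiz was lower in both lines under RA (-1.73 ± 0.39 (adjusted p = 0.00703) in the Olig2 line and -2.44 ± 0.39 (adjusted p = 0.000275) in the Nkx2.2 line). Ctcf, Rad21 and Smchd1 were called in none of the 9 comparisons.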

How the data were processed

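Affymetrix arrays were hybridised with cRNA from 2 ug total RNA, per the labels' protocols. The authors deposited log2 values, which the submitters' processing notes credit to GCRMA without a version. No source states a centring, but the values read as centred per probe set on the median of 27 arrays, of which 21 are analysed here, since at most 13 values of a probe set lie above 0 and at most 13 below. Absolute levels and a filter on low signal were therefore not possible.

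Probe sets were named from the platform annotation: of 45101, 64 were controls, 34945 had 1 symbol, 932 several and 9160 none. Each gene was read from the probe set whose SD over the 21 arrays was largest, which favours probe sets that vary. The 56 members have 101 probe sets, and 27 members have more than 1. In the called comparisons 51 of 63 values from other probe sets of a called member had the same sign, and 21 lay within 0.5 of 0.

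Groups came from the source names. limma 3.58.1 in R 4.3.3 was used with 1 mean per group over 21 arrays (14 residual and 1.11 prior degrees of freedom), and p values were adjusted by Benjamini-Hochberg over 18193 genes. P values measure the spread between the arrays, and their number limits the precision. Alternatives were a replicate block, the inferred batch as a block, the arrays of 1 batch, the mean of all probe sets, probe sets without a suffix, only the arrays compared, arrays centred on their median, a range filter, and leaving out arrays. The fits were tested on simulated data. The members, lists and named genes were chosen with earlier results of these data known. Named are Cdh1, Cdh2 and Cdh4, all called members, the members that set a group apart and up to 4 called genes of other lists per comparison; other members with single high or low arrays were picked with their values in view. Promoters came from RefSeq (GRCm38.p6), since the array annotation names no build for positions.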

Additional observations from a re-analysis of the deposited data

Results flagged for a closer look

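The effect of the Nkx2.2 line differed between the factors for 2 of the 56 members, in an interaction fitted over all genes with limma and added after the comparisons were set. Of all genes 4.38% passed it, a larger share than among the members. For Pcdhb7 the line minus wild type was 0.42 under FGF8 and -1.67 under RA, a difference of 2.09 ± 0.41 (adjusted p = 0.00955; blocked by batch, adjusted p = 0.0254). For Cdh9 it was 1.74 under FGF8 and -1.08 under RA, a difference of 2.82 ± 0.76 (adjusted p = 0.0434), which lost its call once blocked by batch (adjusted p = 0.084). Under RA the line was sampled at day 10 and the wild type at day 8, so day and line cannot be told apart in that arm. No outlier test within groups of 3 arrays was made; single arrays beyond all 20 others are given in the results.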

How the results depend on the processing

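No call changed direction in any alternative. Of the 47 calls, 47 were kept with arrays centred on their median and with the filter on range, 43 with probe sets without a suffix, 38 with the mean of all probe sets, 35 with the batch as a block, 32 without the 3 arrays that stood apart and 22 with only the arrays compared. The numbers of members called moved as follows. For the Lmx1a line against the wild type (4 members called), 2 were called within batch A, 0 with only the arrays compared (limma; 10 at an unadjusted p under 0.05) and 7 with the filter on range. For the FGF8 arm of the Nkx2.2 line against wild type (2) it was 1 within batch B, 1 with only the arrays compared and 5 with the filter on range. For the Olig2 line against the wild type (8) it was 5 blocked by batch and 0 within batch B (limma; 6 at an unadjusted p under 0.05). For the Nkx2.2 line under RA against the wild type (6), 3 were called with only the arrays compared. For the Nkx2.2 line under FGF8 against RA (4) it was 1 within batch B and 0 with only the arrays compared (limma; 8 at an unadjusted p under 0.05). For Lmx1a against Nkx2.2 (6) it was 3 with the batch as a block, 2 with only the arrays compared and 2 without the 3 arrays that stood apart. For the Nkx2.2 line against the Olig2 line (7) it was 2 within batch B and 4 with only the arrays compared, and for the wild-type groups (4) it was 1 with the batch as a block, 1 within batch B and 2 with only the arrays compared. Within a batch and with only the arrays compared fewer arrays enter the fit, and the filter leaves 11426 genes to adjust over; the cause of the other shifts was not tested.

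With 1 array left out in turn the counts ranged from 2 to 5 for the Lmx1a line against the wild type, 2 to 4 for the FGF8 arm of the Nkx2.2 line against wild type (4 without replicate 2 of the wild type), 3 to 10 for the Olig2 line against the wild type (3 without replicate 1 of the wild type), 5 to 8 for the Nkx2.2 line under RA against the wild type, 4 to 6 for day 14 against day 10, 1 to 5 for the Nkx2.2 line under FGF8 against RA (1 without replicate 3 under RA), 3 to 8 for Lmx1a against Nkx2.2 (3 without replicate 1 of the Nkx2.2 line), 5 to 8 for the Nkx2.2 line against the Olig2 line, 2 to 5 for the wild-type groups and 17 to 23 for the F test. Of 282 such refits of a called member 205 kept the call.

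Replicate numbers did not pair the arrays: the mean correlation of residuals was 0.00603 over 63 pairs of the same number, with a lowest value of -0.35, and -0.00337 over 126 pairs of different numbers. The replicate number as a block kept 46 of the 47 calls, with 4, 3, 8, 6, 6, 4, 7, 7 and 4 members called in the 9 comparisons in the order of the text and 20 in the F test. Signal over background is not known for centred values, so the precision rests on the 3 arrays per group.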
